A study of Mus musculus with 4 samples.

Results

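Fn1, Tnc, Sparc, Mgp, Bgn and Dcn encode 6 secreted glycoproteins and proteoglycans of the muscle stem cell niche, and they were chosen by name as the rows with these symbols. All 6 of 6 were among the 13772 genes of the tables, with the identifiers ENSMUSG00000026193, ENSMUSG00000028364, ENSMUSG00000018593, ENSMUSG00000030218, ENSMUSG00000031375 and ENSMUSG00000019929 in that order. They were followed in cultured mouse muscle stem cells of aged and young wild-type (WT) C57BL/6 animals, kept for 7 days on stiff (29 kPa) or soft (12 kPa) polydimethylsiloxane, an elastic silicone polymer. Droplet-based 3' RNA sequencing then gave 1 library for each of 4 groups: aged stiff, aged soft, young stiff and young soft. All groups shared the strain, the tissue of origin (skeletal muscle), the 10% serum medium and the culture time, and the labels give neither the age in months nor how many animals were used. The study's question was how the stiffness of the matrix affects such cells at old age, with decay of RNA as the route it examined. With 1 library per group no difference has a replicate check, so no test is given, and intervals are 95% intervals for counting error only.

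Fibronectin (Fn1) and tenascin-C (Tnc) are large adhesive glycoproteins of the matrix that cells bind through integrins and other receptors. Fibronectin has been described as made by activated satellite cells and as scarce in the aged niche, and tenascin-C as part of the matrix of developing and regenerating muscle. Sparc is a collagen-binding matricellular protein, which acts on cells more than it builds the matrix. Matrix Gla protein (Mgp) inhibits calcification and binds bone morphogenetic proteins. Biglycan (Bgn) and decorin (Dcn) are small leucine-rich proteoglycans that bind collagen and growth factors, and Dcn is best known as a fibroblast product. Pax7, a transcription factor of satellite cells, falls when these cells differentiate into myocytes, which switch on contractile genes.

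After filtering, 1738 aged stiff, 1333 aged soft, 1479 young stiff and 1360 young soft cells were kept. Their UMIs (molecules counted once each) came to 68223815, 47504671, 43961954 and 50362089 in that order, with between 28613 and 37081 in the median cell. Markers of the labelled cell type were present: all 6 myogenic stem and progenitor markers were in the tables, with a summed level of 1215 to 1258 CPM in the 4 libraries (CPM is the abundance of a gene relative to all UMIs of its cell, on the same scale in each cell, and is averaged over cells here). Most of this sum was Myod1, at 897 to 943 CPM, while Chodl reached at most 1.09 CPM. Pax7 had 32.0 and 41.8 CPM in aged stiff and aged soft cells, against 66.2 and 72.7 CPM in young stiff and young soft cells. Myf5 and Vcam1 were also lower in the aged libraries, and Cdh15 was higher. The cells were mixed in stage, since the 20 contractile markers summed to 83553 CPM in aged stiff, 72944 in aged soft, 48917 in young stiff and 45624 in young soft cells. Cells with at least 1 Pax7 UMI, called Pax7-detected, made up 29.1% of aged stiff cells (exact binomial interval 27.0 to 31.3%), 34.6% of aged soft (32.0 to 37.2%), 47.3% of young stiff (44.8 to 49.9%) and 52.6% of young soft cells (50.0 to 55.3%). Of the cell barcodes, 1 was shared by the aged stiff and young soft libraries and 0 by any other pair.

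Promoter sequence was at hand for 3 of the 6 members, Bgn, Sparc and Tnc, and is shown because the levels of these genes went together across cells. Each line gives the 250 bases before the start site from RefSeq on GRCm38.p6, with matches to 5 searched motifs in capitals (both strands: CAGCTG, an E-box form bound by myogenic factors; GGAATG, a TEAD site; TGANTCA, an AP-1 site; TATAAA; and GGGCGG, a GC box). Bgn is read at chrX:73483351-73483600 on the plus strand, Sparc at chr11:55420081-55420330 and Tnc at chr4:64047016-64047265, both on the minus strand.
Bgn: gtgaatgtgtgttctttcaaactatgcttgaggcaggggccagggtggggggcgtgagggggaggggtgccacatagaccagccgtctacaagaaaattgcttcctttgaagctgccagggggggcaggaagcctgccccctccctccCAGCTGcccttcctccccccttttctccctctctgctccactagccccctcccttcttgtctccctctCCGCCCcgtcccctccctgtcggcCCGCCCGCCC
Sparc: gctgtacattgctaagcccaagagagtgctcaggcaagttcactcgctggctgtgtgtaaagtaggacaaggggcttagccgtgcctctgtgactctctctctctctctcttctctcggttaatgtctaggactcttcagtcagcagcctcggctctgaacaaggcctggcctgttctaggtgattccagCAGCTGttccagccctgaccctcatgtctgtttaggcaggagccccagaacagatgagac
Tnc: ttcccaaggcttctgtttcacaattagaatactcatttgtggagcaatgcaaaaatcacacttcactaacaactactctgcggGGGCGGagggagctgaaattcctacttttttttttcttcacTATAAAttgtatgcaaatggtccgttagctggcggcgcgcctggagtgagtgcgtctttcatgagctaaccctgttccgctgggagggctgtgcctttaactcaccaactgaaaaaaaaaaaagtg
Bgn held a CAGCTG at -102 and a GC box, on the other strand, at -34, -10 and -6, while Sparc held a CAGCTG at -60. Tnc held a GC box at -167 and TATAAA at -126. Another Tnc start site is listed, whose window, chr4:64046937-64047186 with 51.2% GC, holds the same matches at -246 and -205. Of 32851 promoter windows of this length, 13.0% held CAGCTG, 32.7% held GGGCGG and TATAAA was in 12.4%. Not found in these 3 windows were GGAATG, present in 12.6% of all windows, and TGANTCA, in 6.75%. The GC content was 64.4% for Bgn, 54% for Sparc and 44.8% for the Tnc window shown, against a median of 52.4%. A match of letters is a description of the sequence and does not show that a factor binds there.

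In the libraries as a whole, 5 of the 6 members were at least 1.5 times lower in aged than in young cells on either substrate. The remaining 1, Dcn, was near the limit of counting everywhere. Among all measured genes 12.2% on stiff and 10.7% on soft were at least 1.5 times lower in aged cells. Fn1 averaged 56.0 CPM in aged stiff and 68.7 CPM in aged soft cells, against 217 CPM in young stiff and 230 CPM in young soft cells. Tnc averaged 7.50 and 8.92 CPM in aged stiff and aged soft cells, against 36.7 and 40.4 CPM in young stiff and young soft cells. Both adhesive glycoproteins thus stood lowest in aged stiff and highest in young soft cells.

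Sparc averaged 758 CPM in aged stiff and 818 CPM in aged soft cells, against 1465 CPM in young stiff and 1380 CPM in young soft cells. Mgp averaged 295 and 355 CPM in aged stiff and aged soft cells, against 930 and 1032 CPM in young stiff and young soft cells. Bgn averaged 275 and 347 CPM in aged stiff and aged soft cells, against 719 and 662 CPM in young stiff and young soft cells. Each of these 5 genes was lower in both aged libraries than in both young ones. How many of all measured genes separate in this way was not counted. Their median log2 ratio of aged against young cells was -0.13 on stiff and -0.12 on soft. Sparc and Bgn were highest in young stiff and Mgp in young soft cells. Dcn averaged 0.883 CPM in aged stiff, 2.34 in aged soft, 0.946 in young stiff and 1.07 in young soft cells.

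**Figure D1:**
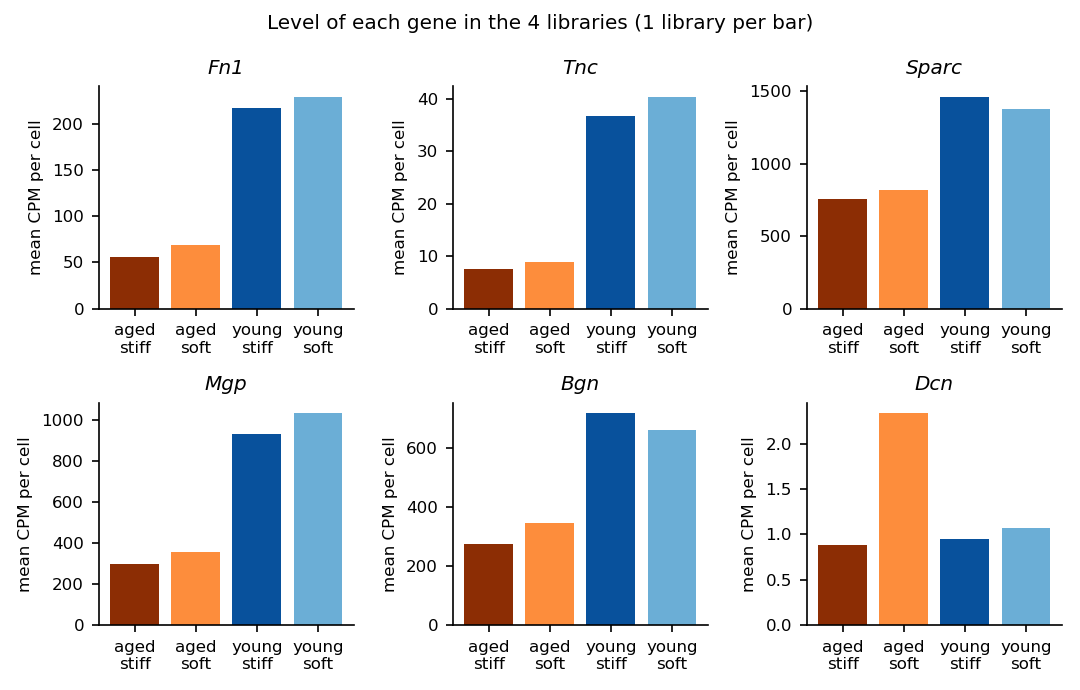
Mean CPM per cell (vertical axes, linear and starting at 0, with a scale of their own for each gene) of the 6 genes in the aged stiff, aged soft, young stiff and young soft libraries, 1 library per bar and so without error bars. Fn1, Tnc, Sparc, Mgp and Bgn have their 2 lower bars in the aged libraries, and Dcn stays at or under 2.34 CPM.

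The share of cells with a transcript was lower in both aged than in both young libraries for Fn1, Tnc, Bgn and Mgp, while Sparc was found in nearly every cell. For shares at 1 depth, 5000 UMIs were drawn at random from every cell, and 0 cells were too shallow for this. Fn1 then had a UMI in 13.6% of aged stiff, 16.1% of aged soft, 36.0% of young stiff and 36.5% of young soft cells (36.5%, 34.4%, 54.3% and 60.4% before thinning). Tnc had one in 3.05%, 3.53%, 13.0% and 12.9% of cells in the same order (12.9%, 11.6%, 28.9% and 33.2% before thinning). Bgn reached 32.0%, 38.3%, 55.0% and 56.6% (57.5%, 58.4%, 65.9% and 70.5% before thinning). Mgp reached 20.02%, 22.9%, 42.5% and 45.4% (38.6%, 35.8%, 55.8% and 65.9% before thinning). At 5000 UMIs Sparc was present in 85.8%, 87.8%, 92.4% and 93.4% of the cells, and at full depth in no fewer than 99.2%. So Sparc differed between ages mainly in its amount per cell, the other 4 in both measures.

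Transcripts of these 4 genes were unevenly spread over the cells. The 10% of cells with the most Mgp held 86.0% of its summed CPM in aged stiff, 80.6% in aged soft, 68.4% in young stiff and 67.0% in young soft cells. For Tnc these shares were 93.6%, 96.9%, 69.2% and 68.8%, for Fn1 75.9%, 72.8%, 56.9% and 56.1%, and for Bgn 59.1%, 51.5%, 36.4% and 35.2%. In all 4 these shares were higher in the aged libraries. The measure rises where fewer cells have a UMI, so it is not independent of the shares of cells above. Sparc was spread most widely, with 31.5%, 31.1%, 27.9% and 27.0%. The highest single cell for Mgp held 13171 CPM in aged stiff, 24617 in aged soft, 48580 in young stiff and 50990 in young soft cells, so that Mgp alone made up 5.10% of the UMIs of that young soft cell.

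Pax7-detected cells carried much more of every measured member than Pax7-undetected cells of the same library. Mgp had 832 CPM in Pax7-detected against 74.3 CPM in undetected aged stiff cells, and 858 against 88.7 CPM in aged soft cells. In young stiff cells it had 1806 against 143 CPM and in young soft cells 1843 against 130 CPM. The log2 ratios, of CPM plus a pseudocount of 5, were 3.40 and 3.20 in aged stiff and aged soft cells and 3.62 and 3.77 in young stiff and young soft cells. In the young soft library none of the 6658 measured genes other than Pax7 had a larger ratio, and in the others Mgp ranked 11, 8 and 4 from the top (aged stiff, aged soft and young stiff).

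Fn1 had 154 against 15.8 CPM in Pax7-detected against undetected aged stiff cells, 165 against 17.6 in aged soft, 411 against 42.3 in young stiff and 403 against 37.6 in young soft cells. Its log2 ratios were 2.94, 2.91, 3.14 and 3.26. Bgn had 733 against 86.6 CPM in aged stiff, 780 against 119 in aged soft, 1308 against 190 in young stiff and 1118 against 155 in young soft cells, with log2 ratios of 3.01, 2.66, 2.75 and 2.81. Both genes thus stood higher in Pax7-detected cells of all 4 libraries.

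Tnc had 16.7 against 3.71 CPM in aged stiff and 18.6 against 3.78 CPM in aged soft cells (Pax7-detected against undetected), under the 20 CPM set for a ratio. In young cells it had 67.6 against 9.00 CPM on stiff and 72.0 against 5.31 CPM on soft, with log2 ratios of 2.37 and 2.90. Sparc differed least, with 1234 against 562 CPM in aged stiff, 1255 against 587 in aged soft, 2158 against 841 in young stiff and 1919 against 780 in young soft cells. Its log2 ratios of 1.13, 1.09, 1.35 and 1.29 lay below those of the other members. At least 1.5 times higher in Pax7-detected cells were 4 of 4 measured members in aged stiff (27.0% of all measured genes), 4 of 4 in aged soft (25.3%), 5 of 5 in young stiff (31.6%) and 5 of 5 in young soft cells (29.1%). The median log2 ratio of the measured members was 2.97, 2.79, 2.75 and 2.90, against 0.22, 0.20, 0.27 and 0.23 over all measured genes.

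The share of cells gave the same picture as the level, as the plot of shares by Pax7 class shows. After thinning, Mgp had a UMI in 48.6% of Pax7-detected against 8.28% of undetected aged stiff cells and in 51.4% against 7.80% of aged soft cells. In young cells it had one in 75.3% against 13.1% on stiff and in 73.9% against 13.8% on soft. Bgn had one in 66.4% against 17.9% of aged stiff, 70.7% against 21.1% of aged soft, 89.7% against 23.9% of young stiff and 85.8% against 24.2% of young soft cells. Fn1 had one in 34.2% against 5.11%, 36.9% against 5.05%, 65.3% against 9.76% and 61.3% against 9.01% in the same order of libraries. For these 3 genes the counting intervals of the 2 classes did not overlap in any library. How many of all measured genes separate in this way was not counted, so this is not read as particular to the members. Sparc had one in 93.3% against 82.8%, 94.8% against 84.2%, 99.0% against 86.4% and 97.6% against 88.7%. Over each library as a whole, Pax7-detected cells were shallower, with a median of 25709 to 32455 UMIs against 30710 to 38762 in Pax7-undetected cells. When Pax7 itself was called after thinning to 5000 UMIs, which leaves many cells with Pax7 in the undetected class, the log2 ratios of Mgp became 2.72, 2.80, 1.63 and 1.74 those of Bgn 2.42, 2.05, 1.53 and 1.48, and those of Fn1 2.60, 1.67, 1.58 and 1.52 (aged stiff, aged soft, young stiff, young soft). Sparc then had 1.27, 0.95, 1.00 and 0.84, and Tnc 1.27 in young stiff and 1.80 in young soft cells. All these ratios stayed past 1.5-fold. For Mgp and Fn1 both aged libraries now had larger ratios than both young ones, where at full depth they had smaller ones, so no order of the ages is read from these ratios.

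**Figure D2:**
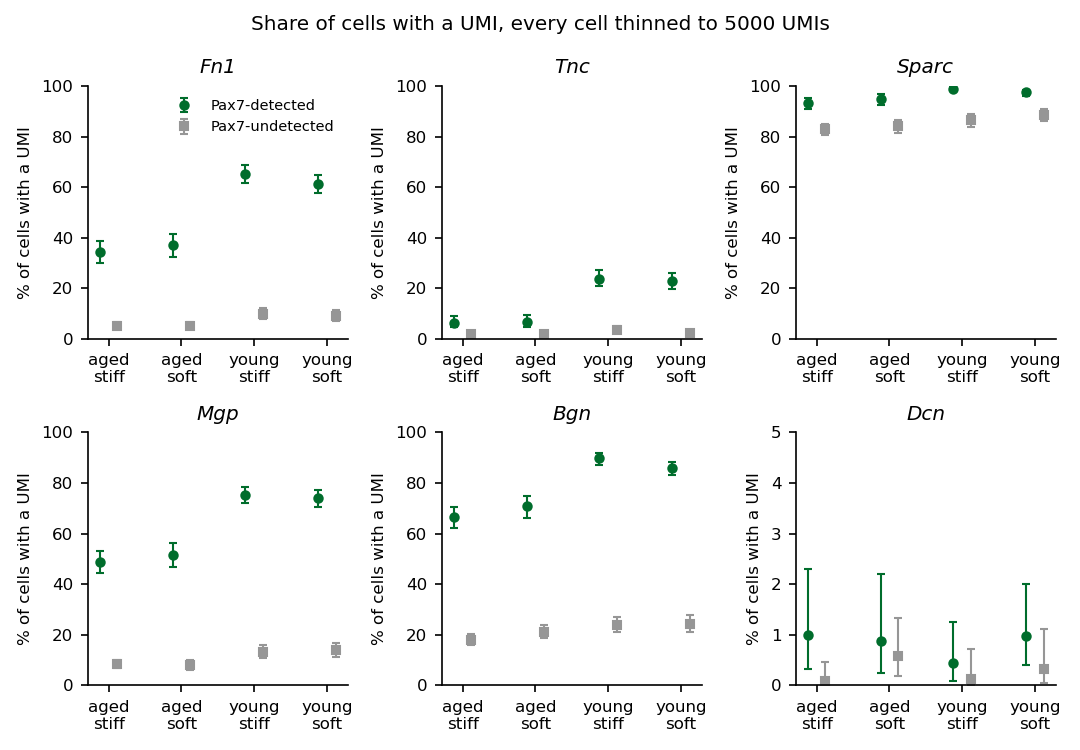
Percent of cells with at least 1 UMI of each gene (vertical axes; Dcn has its own scale) after thinning every cell to 5000 UMIs, in Pax7-detected (green circles) and Pax7-undetected cells (grey squares) of each library, with exact 95% binomial intervals. The green points stand above the grey ones for Fn1, Mgp, Bgn, Tnc and Sparc in all 4 libraries, and the intervals for Dcn overlap.

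The levels also increased with the number of Pax7 UMIs in a cell. Mgp had 288 CPM in aged stiff cells with 1 Pax7 UMI, 804 CPM in those with 2 and 1442 CPM in those with 3 or more. In young soft cells it had 1129, 1882 and 2121 CPM at 1, 2 and 3 or more Pax7 UMIs. Fn1 had 64.6, 148 and 254 CPM in aged stiff and 186, 355 and 500 CPM in young soft cells at the same steps. Each step up in Pax7 went with a higher level of both genes in these 2 libraries. For Mgp and Bgn, aged stiff and young stiff cells differed more at 1 Pax7 UMI, with 288 against 1438 CPM and 319 against 958 CPM, than at 3 or more, with 1442 against 2040 CPM and 1149 against 1458 CPM. Depth was not matched here. The median cell with 1 Pax7 UMI had 37536.5 UMIs in aged stiff against 25858 in young stiff. With 3 or more the medians were 25266.5 and 26371.5. A count of 1 UMI was thus a lower relative level of Pax7 in the aged stiff cells.

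The members tended to be present in the same cells. Among Fn1, Tnc, Sparc, Mgp and Bgn, 4 or all 5 were detected after thinning in 27.1% of Pax7-detected aged stiff, 31.0% of aged soft, 62.0% of young stiff and 58.7% of young soft cells. In Pax7-undetected cells 4 or 5 were detected in 2.03%, 2.64%, 6.80% and 4.19% in the same order.

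Ordering the cells by the share of their UMIs from the 20 contractile genes, and cutting the 5910 cells of all libraries into 3 equal classes, separated the members further than Pax7 did. The cuts fell at 0.513% and 10.1% of a cell's UMIs, and 65 and 947 cells lay within 10% of them. The lowest class held 19.5% of aged stiff, 25.4% of aged soft, 44.7% of young stiff and 46.5% of young soft cells, and the highest class 48.6%, 38.4%, 22.8% and 20.3%. Aged cells were thus more often in the contractile classes, which bears on every average over a library. The genes that define these classes are no members, but all are measured in the same cells.

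Mgp had 1390 CPM in the lowest, 56.0 CPM in the middle and 12.4 CPM in the highest class of aged stiff cells, and 2137, 109.6 and 12.3 CPM in young soft cells. Bgn had 1144, 135 and 18.0 CPM in aged stiff and 1313, 149.6 and 10.9 CPM in young soft cells over the same classes. Fn1 had 239, 20.2 and 6.03 CPM in aged stiff and 472, 27.1 and 5.93 CPM in young soft cells. Over the 4 libraries the lowest class held 39.6 to 79.6 times the Fn1 level of the highest, 60.0 to 121 times that of Bgn and 102 to 174 times that of Mgp. Tnc, at 27.0, 4.66 and 1.56 CPM in aged stiff and 83.3, 4.21 and 1.57 CPM in young soft cells, followed the same order. The lowest class held only 3.31 to 3.86 times as much Sparc, which had 487 CPM in the highest class of aged stiff and 604 CPM in that of young soft cells, against 1633 and 2153 CPM in the lowest. In the highest class Fn1 was detected after thinning in 1.56% to 4.35% of cells, Mgp in 1.37% to 4.71%, Bgn in 4.45% to 8.4% and Tnc in at most 1.56%. RNA free in the droplets can give shares this low, and the part it plays was not tested.

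**Figure D3:**
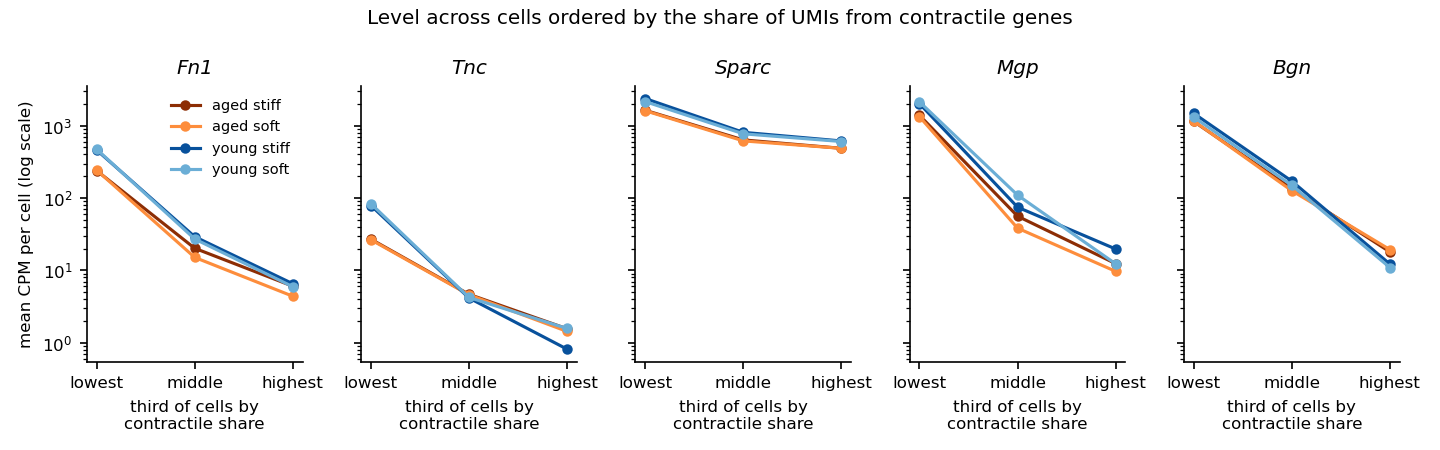
Mean CPM per cell (vertical axis, log scale) of Fn1, Tnc, Sparc, Mgp and Bgn in cells of the lowest, middle and highest contractile class (horizontal axes), 1 line per library. The lines of the 4 libraries run close together and slope down steeply for Fn1, Mgp and Bgn, while Sparc stays at or above 486 CPM.

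Within the lowest contractile class, Pax7-detected and undetected cells differed little in Bgn and Sparc. Bgn had 1151 against 1092 CPM in Pax7-detected against undetected aged stiff cells of that class, and 1326 against 1147 CPM in young soft cells. Its log2 ratio lay between 0.03 and 0.21 over the 4 libraries, and that of Sparc between -0.01 and 0.28. Fn1 stayed higher in Pax7-detected cells, with log2 ratios of 0.49, 0.45, 0.47 and 0.51, and Mgp did so in young cells, with 0.71 on stiff and 0.57 on soft, against -0.16 and 0.03 in aged stiff and aged soft cells. Tnc went either way, with -0.59, 0.65, -0.03 and 0.83. The undetected cells of this class were few: 42 aged stiff, 44 aged soft, 70 young stiff and 44 young soft cells.

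In the middle class the Pax7 difference in Mgp was present in 3 libraries, and Bgn, Fn1 and Sparc were higher in Pax7-detected cells of all 4. Mgp there had 119 against 39.7 CPM in Pax7-detected against undetected aged stiff cells, 228 against 41.8 CPM in young stiff and 364 against 44.5 CPM in young soft cells, with log2 ratios of 1.47, 2.32 and 2.90. In aged soft cells it had 35.8 against 38.9 CPM (-0.11). Bgn had log2 ratios of 1.12, 0.41, 1.49 and 0.73, and Fn1 0.73, 0.43, 1.71 and 0.89, in aged stiff, aged soft, young stiff and young soft cells. Sparc stayed between 0.12 and 0.45. In the highest class of young stiff cells, with 24 Pax7-detected against 313 undetected cells, Mgp had 96.4 against 13.8 CPM, Fn1 33.3 against 4.47 CPM and Bgn 39.4 against 10.1 CPM. There 3 of 4 measured members were at least 1.5 times higher (8.55% of all measured genes). In the highest class of the other libraries it was 0 of 1 in aged stiff (0.279%), 1 of 2 in aged soft (0.398%) and 0 of 1 in young soft (1.80%). How far the Pax7 classes differ thus depends on the contractile class and the library. Pax7-detected cells were deeper in the highest class of each library, with median UMIs of 39240 against 32112 in young stiff. They were also deeper in the middle class of young cells, and the part of depth was not tested.

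Between ages, the 5 measured members were all at least 1.5 times lower in aged cells, on stiff as on soft substrate. On stiff, Fn1 had 0.214 times as many UMIs per UMI counted in aged as in young cells (exact conditional interval 0.204 to 0.223), with a log2 ratio of mean CPM of -1.86. Tnc had a ratio of summed UMIs of 0.187 (0.168 to 0.209) and a log2 ratio of -1.74, Mgp 0.241 (0.236 to 0.246) and -1.64, Bgn 0.316 (0.309 to 0.323) and -1.37, and Sparc 0.502 (0.496 to 0.508) and -0.95. These were 5 of 5, where 12.2% of the 6047 measured genes were that much lower and 3.32% that much higher. Fn1 ranked 10, Tnc 16, Mgp 34, Bgn 85 and Sparc 267 from the lowest ratio.

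On soft, the ratio of summed UMIs in aged over young cells was 0.260 for Fn1 (0.248 to 0.271), 0.213 for Tnc (0.190 to 0.238) and 0.268 for Mgp (0.262 to 0.274). It was 0.440 for Bgn (0.431 to 0.450) and 0.569 for Sparc (0.561 to 0.576). The log2 ratios of mean CPM were -1.67, -1.71, -1.53, -0.92 and -0.75 for Fn1, Tnc, Mgp, Bgn and Sparc. Again 5 of 5 were at least 1.5 times lower, where 10.7% of the 6147 measured genes were and 2.96% were higher. The median log2 ratio of the members was -1.64 on stiff and -1.53 on soft, against -0.13 and -0.12 over all measured genes. Fn1, Tnc and Mgp had nearly equal ratios, while Sparc moved least on both substrates.

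**Figure D4:**
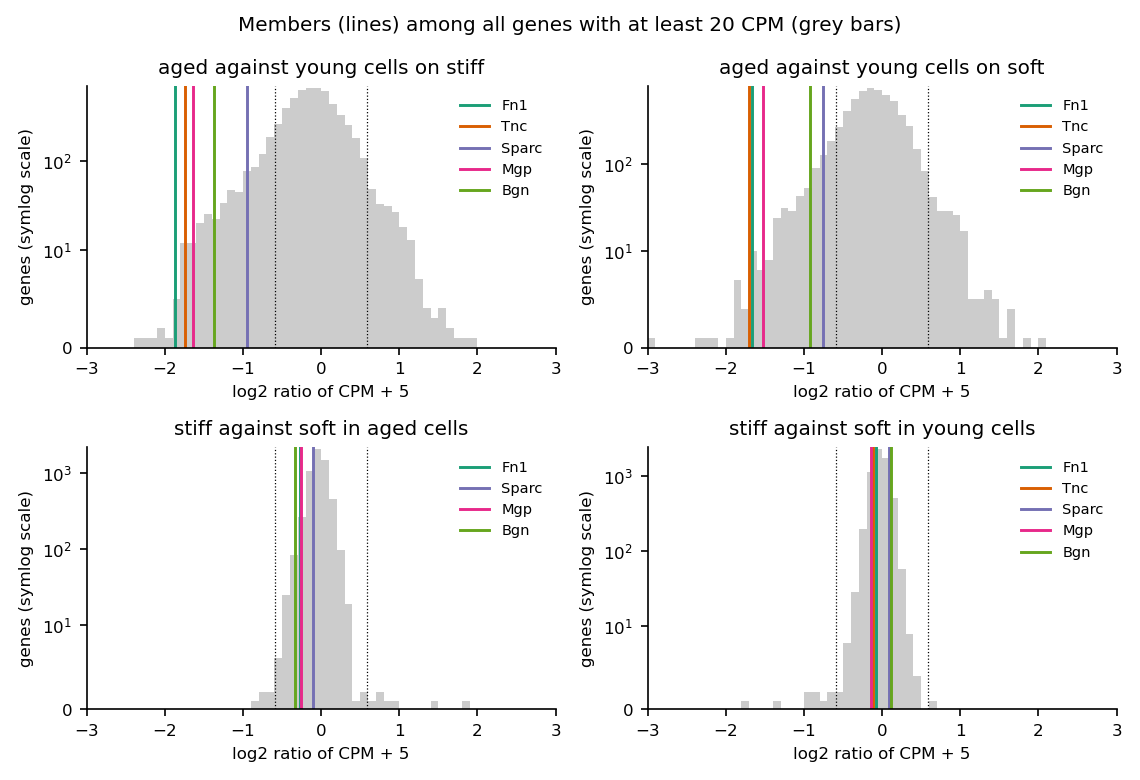
Number of genes (vertical axes, linear up to 10 and logarithmic above) by log2 ratio of CPM plus 5 (horizontal axes) for aged against young cells (top) and stiff against soft substrate (bottom), for genes that reach 20 CPM in 1 or both libraries. Coloured lines mark the members and dotted lines a ratio of 1.5. In both age panels Fn1, Tnc and Mgp lie in the far left tail, between -1.86 and -1.53, and in both stiffness panels no member passes the dotted lines.

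The age difference was smaller within classes of cells for most members, and its size then differed between genes. Pax7-detected cells were not alike in stage between ages. On stiff, 297 of 506 aged and 591 of 700 young ones lay in the lowest contractile class. On soft these were 294 of 461 and 588 of 716. In Pax7-detected cells, Tnc kept its full ratio, with log2 values of -1.74 on stiff (16.7 against 67.6 CPM) and -1.70 on soft (18.6 against 72.0 CPM). Fn1 stood at -1.39 and -1.26, Mgp at -1.11 and -1.10, Bgn at -0.83 and -0.52 and Sparc at -0.80 and -0.61. Of the 5 measured members 5 were at least 1.5 times lower on stiff (8.95% of all measured genes) and 4 on soft (7.59%), Bgn being the exception.

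In the lowest contractile class, where most member transcripts lay, Tnc had 27.0 CPM in aged against 78.8 CPM in young cells on stiff (log2 ratio -1.39) and 26.4 against 83.3 CPM on soft (-1.49). Fn1 had 239 against 461 CPM on stiff (-0.93) and 243 against 472 CPM on soft (-0.95). Mgp had 1390 against 2017 CPM on stiff (-0.54) and 1330 against 2137 CPM on soft (-0.68). The difference of Sparc was close to that of Mgp, and that of Bgn was small. Sparc had 1633 against 2375 CPM on stiff (-0.54) and 1609 against 2153 CPM on soft (-0.42), and Bgn 1144 against 1478 CPM (-0.37) and 1161 against 1313 CPM (-0.18). In this class 2 of 5 were at least 1.5 times lower on stiff (3.86% of all measured genes) and 3 of 5 on soft (5.42%). In the middle class 0 of 4 were that much lower on stiff (2.64%) and 2 of 4 on soft (3.19%). The median log2 ratio of the members there was -0.36 on stiff and -0.50 on soft. In the highest class it was 0 of 1 on stiff (4.20%) and 0 of 1 on soft (5.52%).

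Weighting the aged cells to the young library's shares of contractile and Pax7 classes gave log2 ratios of -1.15 on stiff and -1.22 on soft for Tnc and of -0.88 and -0.90 for Fn1. It gave -0.53 and -0.70 for Mgp, -0.48 and -0.39 for Sparc and -0.36 and -0.18 for Bgn. With the shares of these classes matched, 2 of 5 members on stiff (2.77% of all measured genes) and 3 of 5 on soft (3.43%) were at least 1.5 times lower. They were Fn1 and Tnc on both substrates, and Mgp on soft. Cells of the same class can still differ in stage, and proliferation was not matched. In cells without a Pax7 UMI, 3 of 4 were that much lower on stiff (4.98% of all measured genes) and 1 of 4 on soft (4.89%). Fn1, at -1.19 and -0.92, was among them on both.

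**Figure D5:**
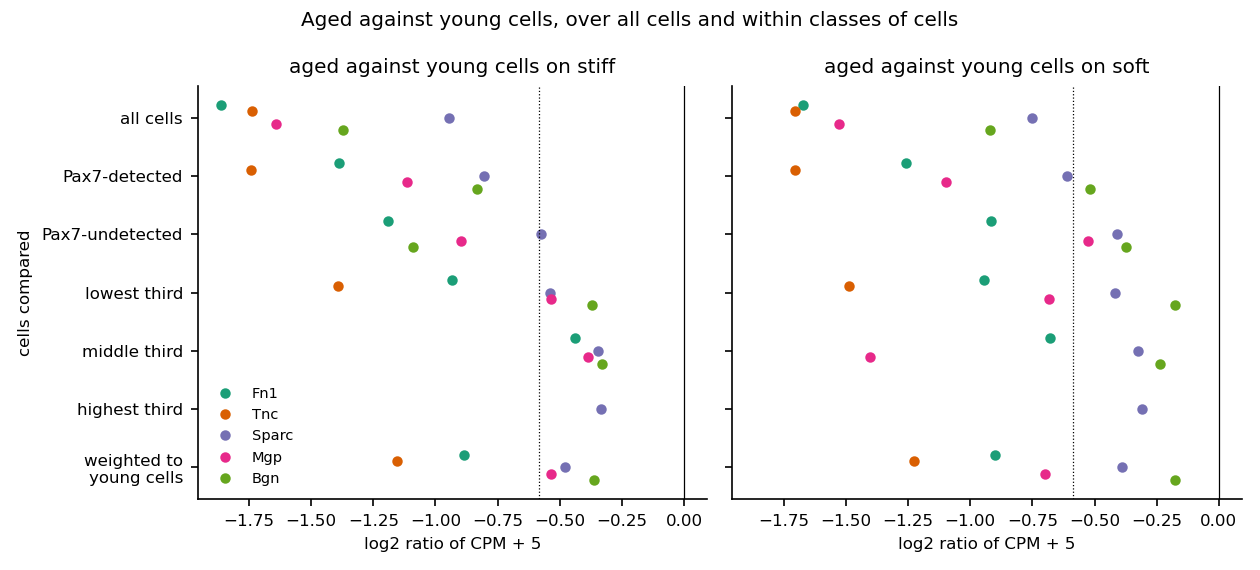
Log2 ratio of CPM plus 5 for aged against young cells (horizontal axes) on stiff (left) and soft (right), over all cells, within classes of cells and after weighting the aged cells to the classes of the young library (rows). A point is shown where a gene had at least 20 CPM in either library, and the dotted line marks a ratio of 1.5 lower. All points lie below 0, Tnc and Fn1 stay left of the dotted line in the lowest class and after weighting, and Bgn moves closest to 0, to -0.18 on soft.

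Pax7-detected cells with and without a UMI of a proliferation gene differed in Tnc in the aged libraries and in Mgp in the young ones. Of the Pax7-detected cells, 160 aged stiff, 158 aged soft, 374 young stiff and 394 young soft cells had a UMI of the proliferation genes Top2a or Mki67. Tnc had 29.4 CPM in aged stiff cells with such a UMI against 10.9 CPM in those without, and 30.8 against 12.3 CPM in aged soft cells (log2 ratios 1.12 and 1.05). In young cells Tnc had 67.5 against 67.7 CPM on stiff and 74.6 against 68.8 CPM on soft (0.00 and 0.11). In the aged libraries Tnc was thus higher in cells with a proliferation UMI, and in the young ones its level was alike in both classes. This split was not matched on contractile class, and fewer aged than young Pax7-detected cells lay in the lowest contractile class. On stiff these were 297 of 506 aged and 591 of 700 young cells, and on soft 294 of 461 and 588 of 716. Depth was not matched either. The median cell with against without a proliferation UMI had 26941.5 against 31448.5 UMIs in aged stiff and 27158 against 27070 in aged soft. In young cells these were 28221 against 22812.5 on stiff and 33979 against 29341.5 on soft. The part of this mix of stages and of depth in the values of Tnc, and of Mgp and Sparc below, was not tested.

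Mgp had 941 against 782 CPM in aged stiff and 918 against 827 CPM in aged soft cells with against without a proliferation UMI. In young cells it had 1314 against 2371 CPM on stiff and 1478 against 2290 CPM on soft, with log2 ratios of -0.85 and -0.63. Young Pax7-detected cells without a proliferation UMI thus had the highest Mgp of these classes. Sparc was higher in proliferating aged cells, at 1571 against 1078 CPM on stiff and 1586 against 1083 CPM on soft, under the 1.5-fold mark, and in young cells its log2 ratios were -0.01 and 0.07. At least 1.5 times higher was 1 of 5 measured members, Tnc, in aged stiff (17.3% of all measured genes) and in aged soft cells (15.4%). That is a share near the one over all measured genes. That much lower was 1 of 5, Mgp, in young stiff (5.98%) and in young soft cells (6.99%).

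Stiffness moved the members little. In aged cells, stiff against soft gave 275 against 347 CPM for Bgn, a ratio of summed UMIs of 0.781 (0.762 to 0.801) and a log2 ratio of -0.33. The log2 ratios of Fn1, Mgp and Sparc were -0.27, -0.26 and -0.11. None of the 4 measured members reached 1.5-fold, which 0.126% of the 5552 measured genes did upward and 0.0901% downward. The 3 largest shifts were still toward the low end: 1.51% of genes had a lower ratio than Bgn, 2.88% than Fn1 and 3.22% than Mgp.

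The aged stiff library had fewer cells in the lowest contractile class than the aged soft one (19.5% against 25.4%), and within that class the values lay close together. Bgn there had 1144 against 1161 CPM, Mgp 1390 against 1330 CPM and Fn1 239 against 243 CPM on stiff against soft, with log2 ratios of -0.02, 0.06 and -0.02. After weighting aged stiff cells to the classes of aged soft cells the log2 ratios were -0.01 for Bgn, 0.09 for Mgp, 0.03 for Fn1 and 0.02 for Sparc. In aged cells with no Pax7 UMI the difference was present, at 86.6 against 119 CPM for Bgn (-0.44) and 74.3 against 88.7 CPM for Mgp (-0.24), and in Pax7-detected aged cells it was -0.09 for Bgn and -0.04 for Mgp. In the middle class the log2 ratios were above 0, at 0.09 for Bgn, 0.50 for Mgp and 0.33 for Fn1.

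In young cells, stiff against soft gave 719 against 662 CPM for Bgn and 1465 against 1380 CPM for Sparc. Their ratios of summed UMIs were 1.09 (1.07 to 1.11) and 1.06 (1.05 to 1.07), and their log2 ratios 0.12 and 0.09. Fn1, Tnc and Mgp had log2 ratios of -0.08, -0.12 and -0.15. None of the 5 measured members reached 1.5-fold, which 0.0166% of the 6034 measured genes did upward and 0.149% downward. In the lowest contractile class of young cells Bgn had 1478 against 1313 CPM and Sparc 2375 against 2153 CPM, log2 ratios of 0.17 and 0.14, so here the difference was also present within the class.

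Dcn was scarce in all libraries. It was counted in 51 UMIs in 35 aged stiff cells, 71 UMIs in 27 aged soft cells, 38 UMIs in 31 young stiff cells and 44 UMIs in 28 young soft cells. In 26, 19, 26 and 21 of these cells it had exactly 1 UMI. In the aged soft library 2 cells held 34 of the 71 UMIs (47.9%), so that its higher mean there rests on 2 cells. Neither of these had 3 or more fibroblast markers, and 1 was Pax7-detected. Most Dcn UMIs, 43, 43, 29 and 35, were in Pax7-detected cells, but at 1 to 6 UMIs per cell elsewhere no order of the libraries can be read.

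Across cells within a library the 5 measured members correlated with one another and with the same few genes. Over 6212 genes, the genes most like Mgp in the mean Pearson correlation of log2(CPM + 1) over the cells of each of the 4 libraries were Islr (0.781), Dpysl3 (0.77) and Tagln2 (0.731). For Fn1 they were Islr (0.738), Dpysl3 (0.723) and the collagen gene Col3a1 (0.703), and for Bgn Igfbp7 (0.812), the actin crosslinker gene Flna (0.806) and Col3a1 (0.805). For Tnc they were Tagln2 (0.472), the fibrillin gene Fbn1 (0.442) and Dpysl3 (0.437), and for Sparc the intermediate filament gene Vim (0.637), Igfbp7 (0.629) and Actb (0.617). Between members the mean correlation was 0.714 for Bgn with Mgp, 0.698 for Fn1 with Mgp and 0.693 for Fn1 with Bgn. With Pax7 it was 0.656 for Mgp, 0.647 for Bgn, 0.639 for Fn1, 0.481 for Sparc and 0.382 for Tnc, and with the contractile gene Acta1 -0.755, -0.759, -0.708, -0.532 and -0.403. The cells share library, depth and the total to which they are scaled, so these values are descriptions. No gene reached 0.3 with Dcn.

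Other genes of the matrix, from lists drawn up by family, gave a context for the members. Of 39 other glycoproteins, 36 were in the tables and 11 were measured in the age comparisons, of which 4 on stiff and 2 on soft were at least 1.5 times lower in aged cells and 0 higher, with medians of -0.41 and -0.21. Over all measured genes 12.2% were that much lower on stiff and 10.7% on soft. Fbn1 was the lowest, at 18.4 against 56.0 CPM on stiff (-1.38) and 23.2 against 59.1 CPM on soft (-1.19), and the integrin ligand Npnt followed on soft at -0.75. Of 25 other proteoglycans, 22 were in the tables and 8 were measured, of which 4 were lower and 0 higher on either substrate, with medians of -0.61 and -0.49. These 4 were the cell-surface syndecans Sdc3 (27.7 against 93.3 CPM on stiff, 36.0 against 101 CPM on soft), Sdc2 (50.0 against 119 CPM, 64.8 against 135 CPM) and Sdc1 (26.2 against 57.6 CPM, 33.0 against 60.8 CPM), and the large matrix proteoglycan Vcan (13.6 against 30.7 CPM, 19.3 against 39.2 CPM). Of 21 receptors and growth factor partners all were in the tables and 9 were measured, and 1 was lower on each substrate, a share near that over all measured genes. It was Tgfb1, a growth factor bound by Bgn and Dcn, at 41.3 against 92.8 CPM on stiff and 43.5 against 88.4 CPM on soft. The median of these 9 was -0.26 on stiff and -0.30 on soft, so the receptors as a list were nearer to the other measured genes than the members were. Between stiff and soft 0 genes of these 3 lists reached 1.5-fold at either age.

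Pax7-detected cells also had more of most listed matrix genes. Of the 15 other glycoproteins measured, 11, 11, 11 and 10 were at least 1.5 times higher in Pax7-detected cells of the aged stiff, aged soft, young stiff and young soft libraries. Of the other proteoglycans, 7 of 11, 7 of 10, 6 of 9 and 6 of 9 were. Over all measured genes these shares were 27.0%, 25.3%, 31.6% and 29.1%. Vcan had 41.3 against 2.27 CPM in aged stiff and 70.5 against 4.30 CPM in young soft cells, Fbn1 53.5 against 3.98 CPM and 106 against 7.32 CPM. A few ran the other way: the small leucine-rich proteoglycan Ogn had 32.5 against 171 CPM in young stiff and 47.4 against 225 CPM in young soft cells, and the integrin subunit gene Itgb6 had log2 ratios of -1.03, -0.999, -1.98 and -1.76. In aged cells Ogn had 117 against 138 CPM on stiff (-0.22) and 114 against 157 CPM on soft (-0.44), under the 1.5-fold mark. In young cells Ogn thus lay higher in Pax7-undetected cells, and its relative Bgn in Pax7-detected ones.

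Markers of other cell types were not equal across the libraries. Of 12 fibroblast markers 10 were in the tables, with a summed level of 5.71 CPM in aged stiff, 4.27 in aged soft, 28.3 in young stiff and 34.0 in young soft cells. The defining marker Pdgfra lay between 0.432 and 0.653 CPM in all 4, and Lum, at 0 in aged soft cells, reached at most 0.854 CPM. The sums in young cells came largely from Col15a1, at 14.6 and 19.3 CPM in young stiff and young soft cells, against 0.897 and 0.829 CPM in aged stiff and aged soft cells. It had a UMI in 15.7% of young stiff and 17.9% of young soft cells. Dpt had 0.465 and 0.0948 CPM in aged stiff and aged soft cells, against 5.45 and 5.78 CPM in young stiff and young soft cells. Abca8a had 0.714 and 0.669 against 3.81 and 4.78 CPM in the same order. Cells with 3 or more fibroblast markers numbered 2, 1, 13 and 24. Endothelial markers summed to at most 0.202 CPM, immune markers to 14.4, 13.6, 4.12 and 3.19 CPM, and tenocyte markers to 305, 295, 169 and 145 CPM, nearly all of it Scx, with Tnmd at 0 in 3 libraries. Of 6 mural and smooth muscle markers 5 were in the tables and summed to 68.0, 70.1, 89.3 and 87.8 CPM. Among them Notch3 had 22.6 and 26.5 CPM in aged stiff and aged soft cells, against 60.1 and 62.0 CPM in young stiff and young soft cells, and Abcc9 40.7 and 36.1 against 19.3 and 17.7 CPM, while the defining marker Myh11 reached at most 0.323 CPM. Notch3, Col15a1, Dpt and Abca8a moved with the age difference of the members, and the part in it of cells with these markers was not tested. Most cells with a Col15a1 UMI have fewer than 3 markers and stay in when cells with 3 or more are left out. Without the 14 aged stiff, 9 aged soft, 31 young stiff and 40 young soft cells that had 3 or more markers of 1 other class, the age ratios were nearly as large: on stiff -1.84 for Fn1, -1.72 for Tnc, -1.60 for Mgp, -1.36 for Bgn and -0.93 for Sparc, and on soft -1.59, -1.70, -1.48, -0.88 and -0.73.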

How the data were processed

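The deposited tables, 1 per library, hold log2(CPM + 1) values per gene and cell; this unit was found from the values, since each cell sums to the same total once the log2 is undone. Cells were trypsinized off the silicone and libraries made with the Single Cell 3' v3 kit, per the labels' protocols. Per the submitters' processing notes the tools include Cell Ranger 6.1.2 and Partek, with no role stated. Genome build, gene annotation and cell filters are not given in the sources used here. Whole UMIs were recovered by dividing a cell's values by the value that 1 UMI takes in it, and 99.95% of values came out whole within 0.05. They served for depth, thinning, shares and intervals. A 3' kit counts molecules by their ends, and a value depends on the total of its cell, so a rise of contractile RNA lowers the CPM of all other genes.

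A cell was kept if it had 500 genes or more and no more than 20% mitochondrial counts. No doublet caller was run, and doublets remain. Levels are means of CPM over cells. Ratios use CPM plus 5, for genes that reach 20 CPM in 1 or both groups; a gene is called at 1.5-fold. Shares have exact Clopper-Pearson intervals and ratios of summed UMIs exact conditional binomial ones. Python 3.11.15, numpy 2.4.6, scipy 1.17.1 and pandas 2.3.3 were used, and the ratio step was tested on simulated data.

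The 6 members and all lists were chosen with earlier results of these data known. Other genes named are at most 4 measured genes of each list with the largest absolute ratio per comparison, and the 3 genes most like a member where the mean correlation was at least 0.3; Pax7, Acta1, Top2a, Mki67 and single markers serve as reference points outside that rule. Alternatives were a pseudocount of 1, CPM of summed UMIs, median-of-ratios scaling, no filters, other sets of cells and another Pax7 threshold.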

Additional observations from a re-analysis of the deposited data

Results flagged for a closer look

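Bgn differed in direction between ages under the same contrast of stiff against soft substrate: its log2 ratio was -0.33 in aged and 0.12 in young cells. Sparc did so too, with -0.11 in aged and 0.09 in young cells. Each direction rests on 1 library per group, and the difference between ages was not tested. Within the lowest contractile class the log2 ratios of Bgn were -0.02 in aged and 0.17 in young cells, and those of Sparc 0.02 and 0.14.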

How the results depend on the processing

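No paired analysis was possible because each group is 1 library, and for the same reason no library could be left out. Of 152 alternative counts of members past 1.5-fold, 148 stayed within 1.5 times the main count. Many of the 148 are for results where no member passed in the main setting. These are the stiffness comparisons, members higher in aged cells and members lower in Pax7-detected cells. The 148 therefore say little about the members lower in aged cells. The 4 others concern the members lower in aged cells, 5 on either substrate. Weighting aged cells to the young library's classes gave 2 on stiff and 3 on soft. Keeping only cells with no Pax7 UMI gave 3 on stiff and 1 on soft, where 4 members were measured because Tnc lay under 20 CPM. No ratio of a called member changed sign. Of 348 alternative ratios of single members 153 moved by more than their counting interval. Median-of-ratios scaling raised the age ratios by 0.10 on stiff and 0.11 on soft and lowered the Pax7 ratios by 0.12 to 0.18 on the log2 scale. The spread between cultures or animals cannot be read from 1 library per group, and the counts of Dcn are too few to order the libraries.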
